A study of Homo sapiens with 18 samples.

Results

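Levels of 10 genes for surface antigens of myeloma cells were measured among the 62703 genes counted: TNFRSF17, SDC1, CD38, SLAMF7, GPRC5D, FCRL5, ITGB7, CD28, NCAM1 and CD27. They were chosen by symbol, as proteins that antibodies or engineered T cells are directed at in myeloma or that are used to recognise malignant plasma cells, and each symbol was matched to the Ensembl identifier used in the counts. The choice was made with earlier results of these data known. RNA-seq had been carried out on 18 libraries labelled as the human multiple myeloma cell lines AMO1, H929 (NCI-H929) and LP1. Each line had 3 libraries labelled SCR, a label that stands for a scrambled control gapmer, and 3 labelled gN1E, which stands for a gapmer against the nuclear long non-coding RNA NEAT1, although NEAT1 was the higher in the latter. A gapmer is an antisense oligonucleotide that directs cleavage of its target RNA, and the cells took it up without a transfection reagent over 48 hours. The comparisons ask how the antigens differ between the lines and whether they move with NEAT1.

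Plasma cells display a set of surface proteins that most other blood cells lack or carry at lower levels, and this makes them targets for treatment. Some are receptors for survival signals, such as TNFRSF17 (BCMA), which binds APRIL and BAFF, while others hold the cell in the marrow or tie it to neighbouring cells, such as the heparan sulfate proteoglycan SDC1 (CD138), the integrin subunit ITGB7 and the adhesion molecule NCAM1 (CD56). Aberrant CD28 or NCAM1 and loss of CD27 are used in flow cytometry to tell malignant from normal plasma cells.

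Total counts per library ran from 28061606 to 69937229. The libraries labelled gN1E were shallower in AMO1, with 28061606, 29663430 and 49784737 counts, than those labelled SCR, with 53227560, 56549069 and 66142827. Totals in LP1 were 56542997 to 69937229 with the SCR label and 44091209 to 57247024 with the gN1E label. In H929 the order was the other way round, with 34710995 to 54387667 against 52856172 to 59302536. The part of depth in the changes with the gapmer label was not tested.

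The labels were checked first. NEAT1, the target, was at 75.7, 78.7 and 90.8 CPM (counts as a share of library size, scaled by the TMM method) in AMO1 libraries labelled SCR and at 473, 553 and 517 CPM in those labelled gN1E. It stood at 79.8, 72.7 and 79.1 against 554, 464 and 542 CPM in H929, and at 135, 173 and 189 against 655, 667 and 828 CPM in LP1. In each line every library labelled gN1E was therefore above every library labelled SCR, opposite to what a gapmer against NEAT1 is meant to do. The log2 difference was 2.66 (SE 0.074) in AMO1, 2.74 (SE 0.068) in H929 and 2.14 (SE 0.19) in LP1, with adjusted p = 5.10e-13, 3.11e-14 and 0.0269 by edgeR's quasi-likelihood test (Benjamini-Hochberg adjusted). In LP1 the call was lost by the same test without SCR replicate B (adjusted p = 0.176) or gN1E replicate A (0.111), B (0.0886) or D (0.0578), while the log2 difference stayed between 2.01 and 2.20 without these libraries. MALAT1, the neighbouring nuclear RNA, was not called in any of the 3 lines, with log2 differences of -0.020, -0.29 and -0.23 in AMO1, H929 and LP1 (adjusted p = 0.932, 0.227 and 0.0553 by the same edgeR quasi-likelihood test), and some other settings called it lower in H929 and in LP1. Names written inside the deposited tables exchange SCR and gN1E in 18 of 18 libraries and H929 and LP1 in 12. Every library is therefore called by its label, and each direction below is that of libraries labelled gN1E, in which NEAT1 was high, against libraries labelled SCR.

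The line labels also call for care. Pearson's correlation of log2 CPM across 15432 genes, which are not independent replicates, was 0.966 to 0.971 between AMO1 libraries and libraries labelled H929, but 0.801 to 0.812 between AMO1 and LP1 and 0.838 to 0.848 between H929 and LP1. The immunoglobulin segment IGHV3-23, chosen after its values were seen, was at 1434 to 2110 CPM in AMO1 and 1031 to 1956 CPM in H929, with 0 counts in each of the 6 LP1 libraries. MAF, a myeloma transcription factor gene also chosen after its values were seen, had 0 to 10 read pairs per library in AMO1 and stood at 28.7 to 38.9 CPM in H929 and 182 to 239 CPM in LP1. Which cell line each label stands for was not settled, so AMO1, H929 and LP1 below mean libraries with those labels. All 9 plasma cell markers (among them IRF4, PRDM1, XBP1, MZB1 and JCHAIN) had at least 10 reads in every library. Their summed level was 16637 to 19009 CPM in AMO1, 18647 to 22031 CPM in H929 and 11611 to 12398 CPM in LP1, led by SDC1 in AMO1 and H929 and by JCHAIN in LP1. The list includes the antigens SDC1, CD38 and TNFRSF17, and the lower sum in LP1 goes with SDC1: against either other line 6 of the 9 markers were called higher in LP1 (IRF4, PRDM1, XBP1, MZB1, JCHAIN and TNFRSF17) and 3 lower (POU2AF1, SDC1 and CD38). The 7 B cell markers summed to 246 to 286, 180 to 194 and 7.73 to 9.70 CPM, led in all 3 lines by CIITA, an activator of MHC class II genes. The 8 T and NK cell markers reached at most 30.4 CPM (led by CD3E), the 8 myeloid markers at most 10.6 CPM, the 6 stromal markers at most 2.93 CPM and the 4 erythroid markers at most 33.1 CPM (led by HBA2).

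Levels within a line were compared per kilobase of exon, since the genes differ in length. The length was that of all annotated exons of a gene (1015 bases for TNFRSF17, 12737 for NCAM1), which need not be that of the transcript expressed. In AMO1 the order of mean CPM per kb over 6 libraries was SDC1 (2951 ± 243, SD, n = 6), TNFRSF17 (105 ± 3.68), GPRC5D (92.8 ± 5.04), CD28 (51.9 ± 1.56), SLAMF7 (38.2 ± 2.07), ITGB7 (34.8 ± 3.50), CD38 (13.7 ± 0.784), NCAM1 (4.41 ± 0.765), FCRL5 (2.92 ± 0.1003) and CD27 (0.0405 ± 0.0355). Only SLAMF7 and ITGB7 overlapped among these neighbours. SDC1 was the gene of rank 9 among all genes by this measure, and took 1.03% to 1.20% of all counts in a library.

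In H929 the order of mean CPM per kb was SDC1 (3578 ± 338, SD, n = 6), TNFRSF17 (117 ± 6.40), GPRC5D (66.3 ± 4.601), ITGB7 (53.0 ± 4.17), SLAMF7 (49.6 ± 2.10), CD28 (32.5 ± 3.91), CD38 (24.4 ± 1.90), FCRL5 (3.22 ± 0.196), NCAM1 (2.38 ± 0.417) and CD27 (0.0172 ± 0.0302). GPRC5D overlapped with ITGB7, and ITGB7 with SLAMF7. LP1 had another order of CPM per kb, led by ITGB7 (1155 ± 89.1, SD, n = 6), then TNFRSF17 (386 ± 19.4), SDC1 (356 ± 25.4), GPRC5D (120 ± 6.70), SLAMF7 (99.5 ± 2.36), CD28 (22.1 ± 3.36), NCAM1 (17.0 ± 0.590), CD38 (5.92 ± 0.247), FCRL5 (0.0476 ± 0.0127) and CD27 (0.0110 ± 0.0153). TNFRSF17 overlapped with SDC1, and FCRL5 with CD27. By this measure TNFRSF17 ranked 2 among the 10 antigens in each line, while ITGB7 moved from place 6 in AMO1 and 4 in H929 to the top in LP1. These places depend on the annotated length. By mean CPM, TNFRSF17 in AMO1 (106) lay below CD28 (253), SLAMF7 (184), ITGB7 (155) and GPRC5D (125).

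**Figure D1:**
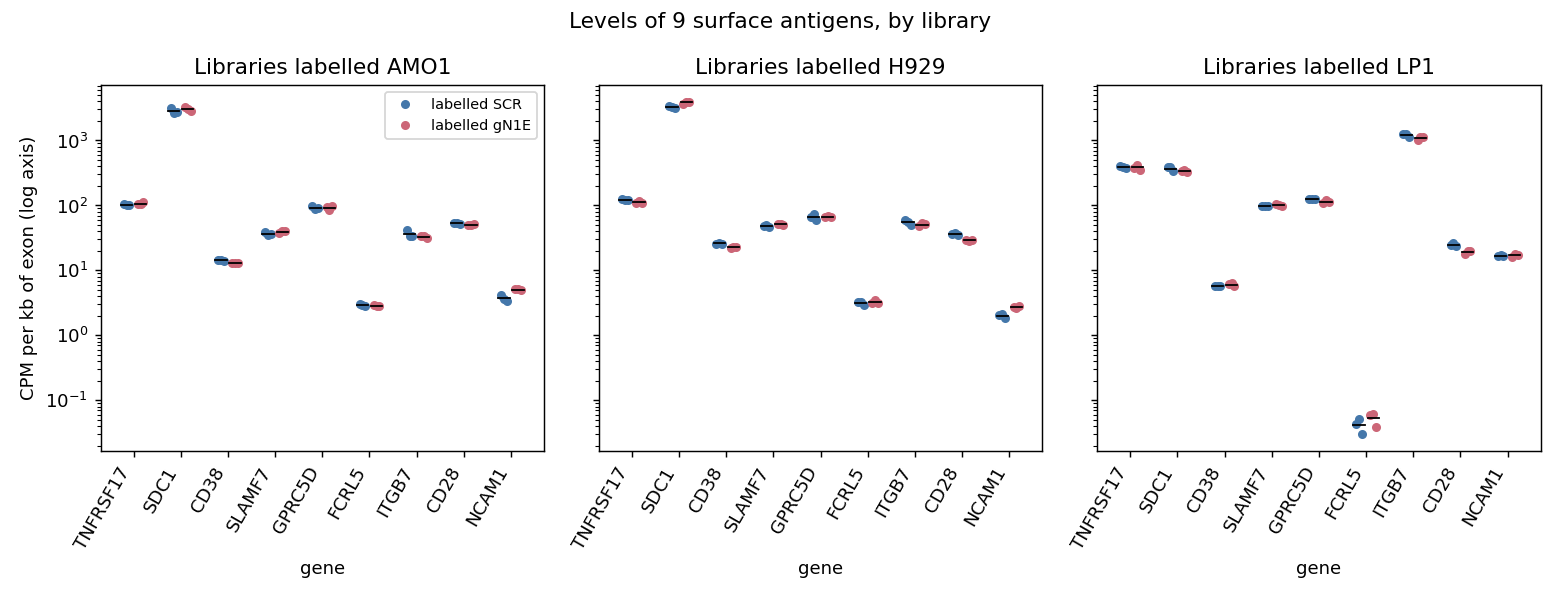
Level of 9 antigens in every library (CPM per kb of exon, log axis), by line label, with the gapmer label in colour and a bar at the mean of the 3 libraries of each gapmer label. SDC1 leads in AMO1 (bars at 2875 with the SCR label and 3027 with the gN1E label) and H929 (3293 and 3863) and ITGB7 in LP1 (1211 and 1099), while FCRL5 lies at 0.0416 and 0.0536 in LP1.

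CD27, a costimulatory receptor of the TNF receptor family that binds CD70, was close to absent in all 3 lines. It had 0 to 6 read pairs per library and 0 in each LP1 library labelled gN1E, where a count of 0 allows up to 0.0556 to 0.0729 CPM (3 counts). It did not reach the minimum of 10 reads and was not tested, so 9 of the 10 antigens entered every comparison. Such floors cover counting error only, because PCR copies of the same molecule were not told apart. In bulk RNA, fewer cells carrying a transcript and less of it per cell cannot be told apart.

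Differences between lines were tested over both gapmer labels in a model of all 18 libraries. ITGB7, the beta7 subunit of the gut-homing integrins, had a lowest, median and highest level of 141, 150 and 185 CPM in AMO1, 212, 232 and 264 CPM in H929 and 4609, 5030 and 5639 CPM in LP1. The 3 ranges did not overlap, and LP1 stood far above the others. The difference was 5.05 on the log2 scale (SE 0.059, 33.2-fold) from AMO1 and 4.45 (SE 0.058, 21.8-fold) from H929. FCRL5, an Fc receptor-like protein of B-lineage cells, went the other way, with 34.9, 35.9 and 38.4 CPM in AMO1, 36.5, 39.8 and 43.9 CPM in H929 and only 0.371, 0.590 and 0.777 CPM in LP1. The LP1 values rest on 19 to 40 read pairs per library and lie far below both other ranges, which overlap. LP1 differed by -5.93 (SE 0.082, 61.0-fold) from AMO1 and -6.07 (SE 0.082, 67.3-fold) from H929 on the log2 scale.

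SDC1, which carries heparan sulfate chains and marks plasma cells, was at 9715, 10558 and 11698 CPM (lowest, median, highest) in AMO1, 11511, 12784 and 14343 CPM in H929 and 1200, 1261 and 1401 CPM in LP1. LP1 was the low line, by -3.05 log2 units (SE 0.050, 8.28-fold) from AMO1 and -3.32 (SE 0.050, 10.0-fold) from H929, while the AMO1 and H929 ranges overlapped. CD38, an enzyme that consumes NAD and the target of daratumumab, was at 88.2, 93.1 and 99.9 CPM in AMO1, 154, 166 and 184 CPM in H929 and 39.2, 39.9 and 43.5 CPM in LP1. Its 3 ranges were apart, with H929 highest and LP1 lowest (log2 difference -2.04 from H929 and -1.21 from AMO1). CD28, a costimulatory receptor better known from T cells, fell in the order AMO1 (243, 254 and 262 CPM), H929 (139, 157 and 182 CPM) and LP1 (88.2, 106 and 129 CPM), again with no overlap, and log2 differences of -0.68 (H929 from AMO1) and -0.56 (LP1 from H929).

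NCAM1 was lowest in H929 and highest in LP1, with 23.3, 30.8 and 36.0 CPM in H929, 43.8, 57.9 and 65.8 CPM in AMO1 and 207, 217 and 224 CPM in LP1. These ranges were apart, with log2 differences of 1.96 (LP1 from AMO1), 2.85 (LP1 from H929) and -0.89 (H929 from AMO1). TNFRSF17 was at 102 to 113 CPM in AMO1, 110 to 126 CPM in H929 and 362 to 419 CPM in LP1, the first pair of ranges overlapping, with log2 differences of 1.88 and 1.73 for LP1. SLAMF7, the target of elotuzumab, rose in the order AMO1 (170 to 195 CPM), H929 (226 to 250 CPM) and LP1 (470 to 501 CPM), with a log2 difference of 1.38 between LP1 and AMO1 and a 2.00-fold level against H929. GPRC5D, an orphan receptor targeted by bispecific antibodies, was at 115 to 132, 79.7 to 98.9 and 148 to 171 CPM in the same order of lines, a span of 0.86 log2 units between LP1 and H929. Among the 9 antigens GPRC5D thus differed least between LP1 and AMO1 (log2 0.37, or 0.19 with library size only), a statement about size and not about a test.

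All 9 tested antigens were called in each comparison of lines. That is to be read against the background: between H929 and AMO1 44.4% of 26436 genes were called (23.2% higher, 21.2% lower; antigens 6 and 3), between LP1 and AMO1 75.9% (37.9% higher, 37.9% lower; antigens 5 and 4) and between LP1 and H929 74.6% (36.2% higher, 38.4% lower; antigens 5 and 4). The median log2 difference of the antigens was 0.16, 0.37 and 0.86, beside 0, -0.022 and -0.053 over all genes tested. With scaling by library size only, the median over all genes moved to -0.20 (LP1 from AMO1) and -0.24 (LP1 from H929), and no antigen changed direction. The smallest differences lay between H929 and AMO1. FCRL5 (log2 0.14, SE 0.052, adjusted p = 0.0262 by edgeR's quasi-likelihood test (Benjamini-Hochberg adjusted)) lost its call in libraries labelled SCR alone (adjusted p = 0.350) and gN1E alone (0.0506), and without AMO1 SCR D (0.0584), AMO1 gN1E D (0.0599), H929 SCR A (0.0594), H929 SCR B (0.0753) or H929 gN1E B (0.0997). TNFRSF17 (log2 0.16, SE 0.036, adjusted p = 5.53e-04 by the same edgeR quasi-likelihood test) lost it in the libraries labelled gN1E alone (log2 0.063, adjusted p = 0.387, the highest in a range from 2.66e-05) and was larger in those labelled SCR alone (log2 0.25). SDC1 (log2 0.27, SE 0.046, adjusted p = 1.35e-05 by this edgeR quasi-likelihood test) was called in all 19 alternatives.

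**Figure D2:**
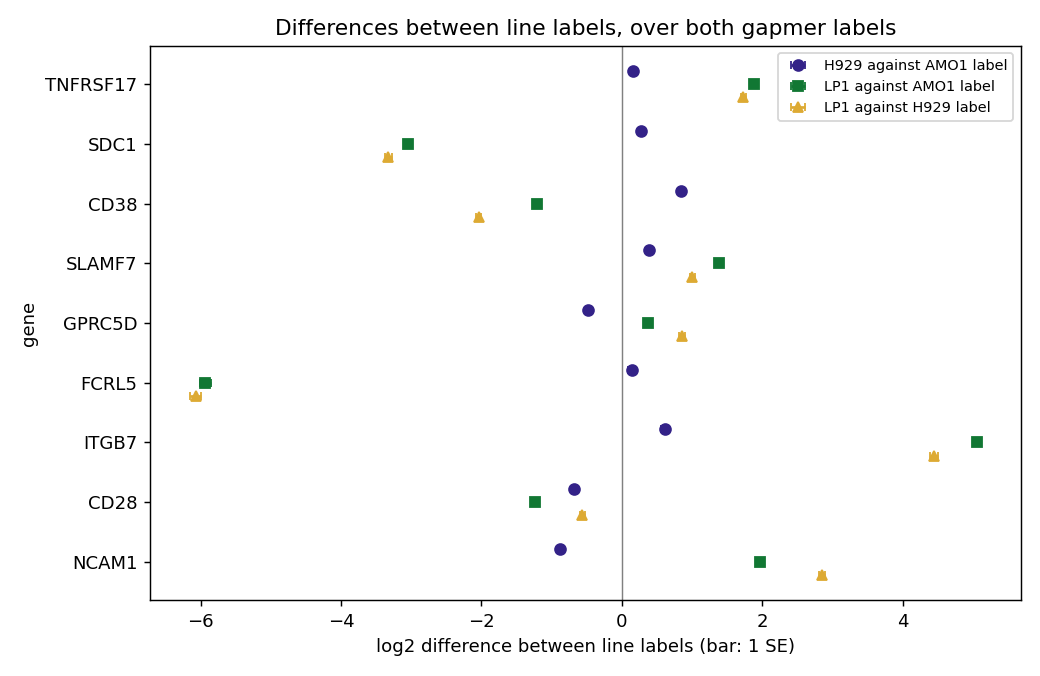
Log2 difference of 9 antigens between line labels over both gapmer labels, with bars of 1 standard error. ITGB7 (5.05 and 4.45) and FCRL5 (-5.93 and -6.07) lie farthest from 0 in LP1 against AMO1 and against H929.

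SDC1 and FCRL5 were both much lower in LP1, and the 250 bases before their starts are shown for that reason, from RefSeq (GRCh38.p14), 5′ to 3′ on the minus strand of each gene with CpG in capitals. SDC1 has another start in RefSeq, with a stretch at chr2:20225131-20225380 (21 CpG, 75.2% G or C) that is not shown. The SDC1 stretch shown is chr2:20225476-20225725 and the FCRL5 stretch chr1:157552516-157552765.
SDC1: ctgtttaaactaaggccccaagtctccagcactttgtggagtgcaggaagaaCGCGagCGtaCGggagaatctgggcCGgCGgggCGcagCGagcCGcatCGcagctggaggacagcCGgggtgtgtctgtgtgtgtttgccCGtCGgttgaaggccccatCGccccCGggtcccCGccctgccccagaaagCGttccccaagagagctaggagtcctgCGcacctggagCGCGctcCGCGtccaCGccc
FCRL5: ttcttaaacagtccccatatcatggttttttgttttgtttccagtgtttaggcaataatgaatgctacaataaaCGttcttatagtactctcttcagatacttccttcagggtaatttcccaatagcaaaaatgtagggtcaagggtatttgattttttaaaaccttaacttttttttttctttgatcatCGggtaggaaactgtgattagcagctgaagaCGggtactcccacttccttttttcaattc
The SDC1 stretch shown holds 23 CpG and 66.4% G or C, the FCRL5 stretch 3 CpG and 34.8%, beside medians of 11 CpG and 58.0% over 34788 promoters of the same length. Of the 10 antigen genes, 7 had an entry, with 8 windows in all (TNFRSF17, SLAMF7 and NCAM1 had none). On both strands these were searched for an AP-1 core (TGANTCA, in 6.59% of all promoters), the TGCTGA core of MAF sites (13.98%) and a pair of IRF motifs (3.02%). SDC1, FCRL5, CD38, ITGB7 and CD28 held no match, GPRC5D held a MAF core and CD27 an AP-1 core.

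Changes with the gapmer label were tested within each line. Where the libraries of the gapmer labels are said not to overlap, the share of all genes without overlap is not given. A lack of overlap is therefore a description and no test. The antigens that were called were NCAM1 in AMO1 and H929 (higher with the gN1E label), SDC1 in H929 (higher), CD38 in H929 (lower) and CD28 in H929 and LP1 (lower). That is 1 of 9 in AMO1, where 473 of 22933 genes (2.06%) were called, 4 of 9 in H929, where 1286 of 23499 (5.47%) were, and 1 of 9 in LP1, where 332 of 23165 (1.43%) were. These genome-wide counts rest on single libraries, ranging from 254 to 606 in AMO1, 701 to 1272 in H929 and 87 to 780 in LP1 when a library was left out, so the shares are a rough yardstick. They also include genes of few reads. Among genes of at least 1 CPM, 2.46%, 5.48% and 1.01% were called higher in AMO1, H929 and LP1. The antigens were chosen with earlier results of these data known, so nothing is read from their counts beside these shares. By direction, 1.64% of all genes were called higher and 0.419% lower in AMO1 (antigens 1 and 0), 3.7% and 1.77% in H929 (2 and 2) and 0.656% and 0.777% in LP1 (0 and 1). The replicate letters may pair the AMO1 libraries, which the main test leaves out. With the letter as a block 1394 genes were called there, NCAM1 still being the only antigen. With library size only, the genes called higher and lower were 309 and 295 in AMO1 (against 377 and 96), 556 and 743 in H929 (against 870 and 416) and 229 and 130 in LP1 (against 152 and 180). The median log2 difference of the 9 antigens was 3.7e-04, -0.0018 and 0.0084 in AMO1, H929 and LP1, beside -0.016, -0.0096 and -0.0012 over all genes. Nothing states that the replicates were separate cultures, so p-values measure only the spread between these libraries, which may be technical.

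NCAM1 (ENSG00000149294.17), a cell adhesion molecule of the immunoglobulin superfamily, lies on hg38 at chr11:112961247-113278436. In AMO1 it was at 52.5, 46.8 and 43.8 CPM in replicates A, C and D labelled SCR and at 65.0, 65.8 and 63.3 CPM in those labelled gN1E. In H929 the values were 26.3, 27.5 and 23.3 CPM (A, B and C) against 35.0, 34.0 and 36.0 CPM. Every library labelled gN1E was above every library labelled SCR in both lines. The log2 difference was 0.44 (SE 0.068, 1.36-fold) in AMO1 and 0.43 (SE 0.062, 1.35-fold) in H929, with adjusted p = 4.75e-04 and 2.34e-05 by edgeR's quasi-likelihood test (Benjamini-Hochberg adjusted). In LP1, where NCAM1 was most abundant, it stood at 209, 223 and 213 CPM against 207, 224 and 221 CPM. These groups overlapped (log2 difference 0.039, SE 0.048, and 0.013 to 0.075 without a library). NCAM1 spans 317 kb, and genes of 200 to 500 kb had, with no test made of it, a higher median log2 difference than all genes of at least 1 CPM: 0.081 in AMO1 (786 genes), 0.077 in H929 (834 genes) and 0.033 in LP1 (832 genes), beside 0.0018, 0.0031 and -0.0026. Of these long genes 11.96%, 19.5% and 2.64% were called higher, beside 2.46%, 5.48% and 1.01% of all genes at that level. With an offset for genomic span NCAM1 was still called, at a log2 difference of 0.34 in both AMO1 and H929.

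CD28 was at 175, 182 and 171 CPM in H929 libraries labelled SCR and at 143, 139 and 143 CPM in those labelled gN1E. In LP1 it was at 122, 129 and 116 CPM (A, B and D) against 88.2, 96.0 and 96.9 CPM. All libraries labelled gN1E were lower in these lines, with no overlap, and the log2 difference was -0.32 (SE 0.046) in H929 and -0.36 (SE 0.053) in LP1, with adjusted p = 1.88e-05 and 7.24e-04 by edgeR's quasi-likelihood test (Benjamini-Hochberg adjusted). In AMO1, the line with the highest CD28, the values were 262, 260 and 253 CPM against 243, 247 and 256 CPM. The groups overlapped there (log2 difference -0.055, SE 0.051).

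CD38 in H929 was at 175, 184 and 178 CPM with the SCR label and at 154, 158 and 156 CPM with the gN1E label. The groups were apart, with a log2 difference of -0.21 (SE 0.046, adjusted p = 0.00406 by edgeR's quasi-likelihood test (Benjamini-Hochberg adjusted)). In AMO1 it was at 99.9, 99.1 and 96.8 CPM against 89.3, 88.2 and 89.4 CPM, again with every library labelled gN1E lower, but the log2 difference of -0.15 (SE 0.054) was not called (adjusted p = 0.244 by the same edgeR quasi-likelihood test). A span offset together with the replicate block called it (log2 -0.18, adjusted p = 0.0180), within a range of 0.0180 to 0.513 over its alternatives. LP1 values were 39.9, 39.2 and 39.8 CPM against 41.9, 43.5 and 39.5 CPM, which overlap.

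SDC1 in H929 was at 12334, 11853 and 11511 CPM with the SCR label and at 13234, 14289 and 14343 CPM with the gN1E label. Every library labelled gN1E was higher, by 0.22 log2 units (SE 0.057, 1.16-fold, adjusted p = 0.0196 by edgeR's quasi-likelihood test (Benjamini-Hochberg adjusted)). This call was lost with scaling by library size only (adjusted p = 0.0507) and without SCR replicate A (0.0652), B (0.0510) or C (0.0555) or gN1E replicate B (0.0932) or C (0.0818), in a range of 2.42e-05 to 0.0932 over all alternatives. SDC1 overlapped between the gapmer labels in AMO1 (9715 to 11594 CPM against 10142 to 11698) and LP1 (1206 to 1401 CPM against 1200 to 1285), with log2 differences of 0.077 (SE 0.069) and -0.084 (SE 0.053), which ranged from 0.027 to 0.17 and from -0.14 to -0.051 when a library was left out.

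**Figure D3:**
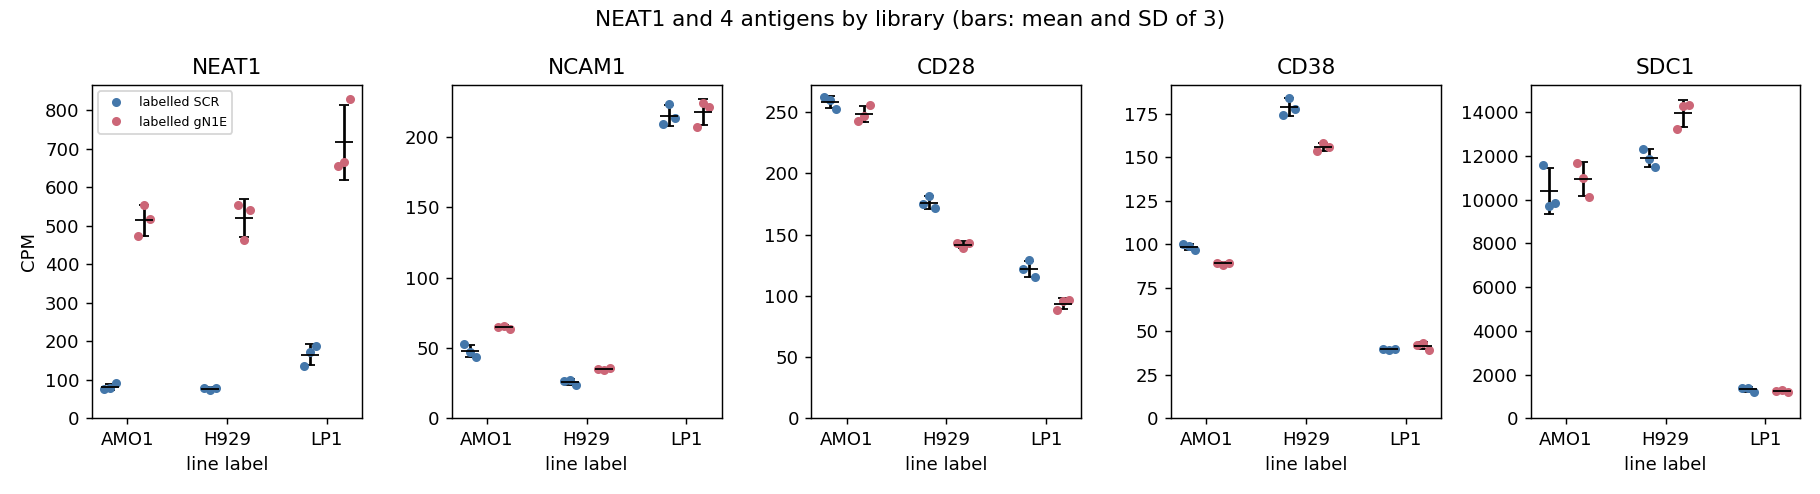
NEAT1 and 4 antigens in each of the 18 libraries (CPM, axes from 0), by line label, with mean and SD of 3 libraries per gapmer label. NCAM1 is higher with the gN1E label in AMO1 and H929 (log2 difference 0.44 and 0.43) and CD28 lower in H929 and LP1 (-0.32 and -0.36).

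The remaining 5 tested antigens were not called in any line. TNFRSF17 in H929 was at 126, 123 and 123 CPM with the SCR label and 110, 117 and 112 CPM with the gN1E label, so that the groups were apart (log2 difference -0.15, SE 0.047, adjusted p = 0.0679 by edgeR's quasi-likelihood test (Benjamini-Hochberg adjusted)). DESeq2 (adjusted p = 0.0461) and scaling by library size only (0.0143) called it lower, in a range of 0.0143 to 0.257. ITGB7 in AMO1 was at 185, 153 and 151 CPM against 149, 150 and 141 CPM, with all libraries labelled gN1E lower, while in H929 and LP1 the groups overlapped. Its log2 differences were -0.15, -0.14 and -0.12 in AMO1, H929 and LP1, and their size rested on single libraries, ranging over the alternatives from -0.21 to -0.047 in AMO1 (-0.047 without SCR replicate A), -0.20 to -0.087 in H929 and -0.17 to -0.075 in LP1. In H929 (264, 249 and 226 CPM against 212, 235 and 229 CPM, adjusted p = 0.146 by the edgeR quasi-likelihood test) it was called lower with library size only (0.0335) and without SCR replicate C (0.0199), in a range of 0.0199 to 0.547. SLAMF7 had log2 differences of 0.099, 0.089 and 0.050 in the same order of lines, with libraries labelled gN1E above those labelled SCR in H929 (246 to 250 against 226 to 238 CPM) and overlap in AMO1 and LP1 (without a library 0.067 to 0.15 in AMO1 and 0.028 to 0.067 in LP1). GPRC5D had 3.7e-04, -0.0018 and -0.11, the values of AMO1 and H929 changing sign between settings, and in LP1 the gN1E label was below (148 to 162 against 167 to 171 CPM). FCRL5 had -0.032, 0.042 and 0.38 (SE 0.31 in LP1, where it was scarce, and 0.21 to 0.56 without a library), with overlap in each line.

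**Figure D4:**
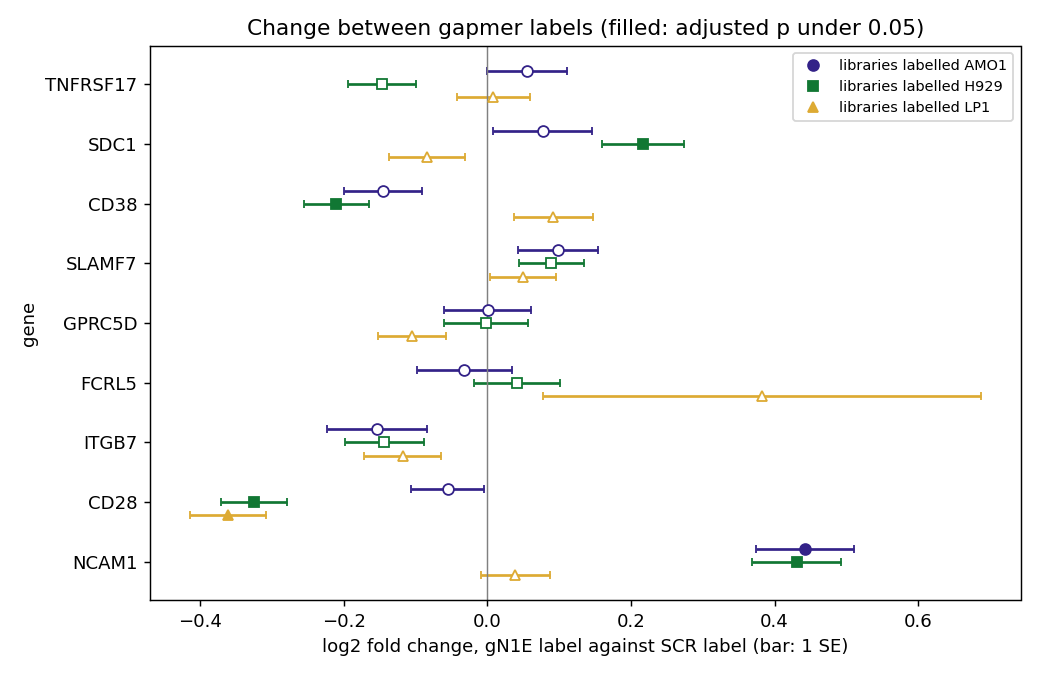
Log2 fold change of 9 antigens between gapmer labels (gN1E against SCR) in each line label, with bars of 1 standard error and filled symbols for adjusted p under 0.05. NCAM1 lies at 0.44 and 0.43 in AMO1 and H929 and at 0.039 in LP1 (0.013 to 0.075 without a library). CD28 lies at -0.055 in AMO1 and at -0.32 and -0.36 in H929 and LP1.

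Whether a change differed between lines was tested as an interaction in the model of 18 libraries, in which comparisons share libraries. Between LP1 and AMO1, 2 of 9 antigens were called against 196 of 26436 genes (0.741%), and between LP1 and H929 2 of 9 against 231 (0.874%). With library size only these genes were 79 higher and 69 lower (against 36 and 160) and 73 and 83 (against 36 and 195). The change of NCAM1 in LP1 was smaller by -0.42 log2 units (SE 0.083) than in AMO1 and by -0.43 (SE 0.085) than in H929 (adjusted p = 0.00574 and 0.00461 by edgeR's quasi-likelihood test (Benjamini-Hochberg adjusted)). The comparison with H929 missed the threshold with library size only (adjusted p = 0.0693, the highest in a range from 9.86e-04). CD28 changed by -0.33 log2 units (SE 0.070) more in LP1 than in AMO1 (adjusted p = 0.0128 by the same edgeR quasi-likelihood test). It was not called with library size only (0.133) or without AMO1 SCR D (0.0516), AMO1 gN1E D (0.0557), LP1 SCR B (0.0732) or LP1 gN1E A (0.0633). CD38 differed by 0.27 (SE 0.067) between LP1 and H929 (adjusted p = 0.0437 by that edgeR quasi-likelihood test), and lost this without any of 11 of the 12 libraries, LP1 gN1E D being the exception (up to 0.157). The response of SDC1 differed by -0.34 (SE 0.092) between LP1 and H929 and was not called (adjusted p = 0.0906 by edgeR's test, Benjamini-Hochberg adjusted), except with the replicate block (0.00482) and without LP1 SCR D (0.0112), in a range of 0.00482 to 0.309.

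For CD38 the difference of 0.22 (SE 0.068) between LP1 and AMO1 was called only by DESeq2 (adjusted p = 0.0352) and with library size only (0.0264), against 0.153 by edgeR's quasi-likelihood test. Between H929 and AMO1 no antigen was called, as 0 of 26436 genes were (0%) by edgeR's quasi-likelihood test, with 1771 genes at an unadjusted p under 0.05 and 5 genes called by DESeq2. CD28 differed by -0.25 there (SE 0.069, adjusted p = 0.621 by edgeR with Benjamini-Hochberg adjustment), so its change in H929 is not shown to differ from that in AMO1.

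Genes that act with the antigens were taken from lists, and their counts are to be read beside the 2.06%, 5.47% and 1.43% of all genes called in AMO1, H929 and LP1. These lists were also chosen with earlier results of these data known. Among 15 tested genes of the BAFF and APRIL axis, 0 were called in AMO1, 2 in H929 (TRAF3 higher, REL lower) and 1 in LP1 (TRAF3 higher), counts too small to set apart from the share over all genes. TRAF3, which restrains non-canonical NF-kappaB signalling, had log2 differences of 0.17 in H929 and 0.25 in LP1, and REL, an NF-kappaB subunit, -0.19 in H929. The calls of TRAF3 and REL were lost in most alternatives. The medians of the list were 0.063, 0.098 and 0.0013 in AMO1, H929 and LP1, beside -0.016, -0.0096 and -0.0012 over all genes. Of 10 tested proteases that shed or process surface antigens, such as the gamma-secretase that cuts TNFRSF17, only NCSTN (log2 0.17) and MMP14 (-0.66) were called, both in H929. NCSTN lost its call with library size only and without 4 of the libraries, and MMP14 with the replicate block (with or without the span offset), in the joint fit and without 5 of the libraries, and the medians were 0.060, 0.060 and 0.0072.

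SDC1 carries heparan sulfate, and EXT2, which helps to polymerise these chains, was called higher in all 3 lines. Its level rose from 29.1 ± 1.76 to 45.8 ± 2.62 CPM (SD, n = 3) in AMO1, from 31.4 ± 0.433 to 50.0 ± 3.35 in H929 and from 40.1 ± 1.39 to 49.7 ± 0.869 in LP1, log2 differences of 0.65, 0.66 and 0.33. XYLT1, which starts the chain, had log2 differences of 0.19 in AMO1 and 0.23 in H929 (adjusted p = 0.119 and 0.00976 by edgeR's quasi-likelihood test, Benjamini-Hochberg adjusted), so that only H929 passed the threshold, but these changes were not shown to differ (difference 0.051, adjusted p = 0.970 by the same edgeR test). The H929 call was lost with the span offset, alone (0.203) or with the replicate block (0.265), and without SCR replicate C (0.0586) or gN1E replicate B (0.0653). In LP1 XYLT1 went the other way (log2 -0.11) and was not called (adjusted p = 0.346 by that edgeR test). Its differences between LP1 and the other lines are given with the flagged results. The list had 1 of 16, 2 of 18 and 1 of 19 tested genes called higher and 0 lower, beside 1.64%, 3.7% and 0.656% of all genes called higher and 0.419%, 1.77% and 0.777% lower, so that 0 lower is no feature of the list (medians 0.020, 0.067 and -0.022). Among the other syndecans and glypicans, 1 of 6 was called in AMO1, 1 of 6 in H929 and 0 of 6 in LP1, with medians of 0.014, -0.075 and 0.038. This was GPC6, which went from 11.5 ± 2.31 to 53.3 ± 0.761 CPM (SD, n = 3) in AMO1 and from 10.3 ± 0.583 to 49.7 ± 0.688 in H929 (log2 2.21 and 2.26) and had at most 3 read pairs per library in LP1. Like those of EXT2, PARP1, SARM1, BCL2 and TNFRSF8, the GPC6 change is given by the main test only, without the span offset or other alternatives.

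PARP1, which consumes NAD as CD38 does, was called higher in all 3 lines, by 0.74, 0.82 and 0.29 log2 units, from 131 ± 4.43 to 219 ± 8.16 CPM (SD, n = 3) in AMO1, 142 ± 4.30 to 253 ± 9.51 in H929 and 413 ± 14.7 to 498 ± 23.1 in LP1. SARM1, an NAD hydrolase, was called higher in H929 (0.30). The NAD list had 1 of 9, 2 of 10 and 1 of 9 genes called higher and 0 lower, with medians of 0.11, -0.0081 and 0.018. Over all genes the shares were 1.64%, 3.7% and 0.656% higher and 0.419%, 1.77% and 0.777% lower, and in lists this short a single gene such as PARP1 or IGF1R makes up much of the count. Among other surface antigens, 1 of 17, 2 of 18 and 1 of 22 were called higher and 0 lower (medians -0.031, 0.0045 and -0.063). IGF1R, a growth factor receptor, was called in all 3 lines (log2 0.32, 0.37 and 0.21), though not with the span offset in AMO1 (0.21) and LP1 (0.17) nor without SCR replicate D in AMO1 (0.28) or, in LP1, with the span offset and replicate block, in the joint fit or without any of 5 single libraries, and the tetraspanin CD81 in H929 (0.18), a call lost in 9 of its alternatives. Of 10 drug targets inside the cell, BCL2 was called higher in AMO1 and H929 (log2 0.37 and 0.25) and the ubiquitin ligase scaffold CUL4A in H929 (0.19), with list medians of 0.058, -0.019 and 4.3e-04. The CUL4A call was lost with library size only (adjusted p = 0.0778 by edgeR's quasi-likelihood test, Benjamini-Hochberg adjusted) and without SCR replicate A (0.0683) or gN1E replicate B (0.0888).

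In the other lists the shares called were about those over all genes (2.06%, 5.47% and 1.43%) or 0. Of integrins and adhesion molecules, CD44, the hyaluronan receptor, was called lower in H929 (log2 -0.23), 1 of 19, and 0 of 19 were called in AMO1 and in LP1 (medians -0.11, -0.036 and -0.037). This call was lost without SCR replicate A (log2 -0.20, adjusted p = 0.0820 by edgeR's quasi-likelihood test, Benjamini-Hochberg adjusted). In the costimulation and TNF receptor list, TNFRSF8 (CD30) was called higher in H929 (log2 0.30), 1 of 15, with 0 of 13 in AMO1 and 0 of 12 in LP1 (medians -0.11, 0.015 and 0.015). No gene was called by edgeR's quasi-likelihood test in the SLAM family and its adaptors (0 of 5, 4 and 6; medians 0.033, 0.0097 and -0.14), the FCRL and GPRC5 relatives (0 of 4, 5 and 6; medians -0.43, -0.17 and -0.14) or the complement regulators and ligands of killer cells (0 of 11, 12 and 11; medians 0.078, -0.030 and -0.025).

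Likeness over the 18 libraries was measured as the root mean square (RMS) difference of log2 CPM after centring each gene on its mean, among 15429 genes. Nearest to TNFRSF17 were TRAM1 (0.065) and PGM2L1 (0.072), and to SLAMF7 RBFA (0.050) and SLC16A1 (0.073). SDC1 was followed by LINC01579 (0.13) and DHRS2 (0.13), ITGB7 by MILR1 (0.14) and HUNK (0.16), and FCRL5 by PRAME (0.15) and MTERF1 (0.15). For CD38 these genes were DUSP26 (0.14) and CORIN (0.15), for GPRC5D EIF3D (0.082) and CLIC1 (0.088), for CD28 BCAN-AS1 (0.097) and ARNT (0.12) and for NCAM1 HEG1 (0.18) and OTULINL (0.19). The libraries fall into 3 lines, so the measure mainly follows differences between lines.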

How the data were processed

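RNA-seq of 18 libraries (stranded total RNA, paired reads of 150 bases) was analysed. The authors deposited raw counts of read pairs per gene: alignment to hg38 used STAR 2.7.10a, and counting featureCounts 1.6.4 (reverse strand, exons, GENCODE release 43), without normalization. Their processing notes also name FastQC and limma. Each table lists 62703 genes; none of its lines lacks a gene, and 62686 had a symbol.

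Libraries were grouped by sample labels. Genes reaching 10 reads in 1 or more libraries were fitted with edgeR 4.0.16 (TMM, robust quasi-likelihood, Benjamini-Hochberg adjustment, threshold 0.05) in R 4.3.3, within each line and jointly over 18 libraries for line and interaction contrasts. CPM used TMM-scaled library sizes, log2 CPM a prior count of 1. Standard errors (SE) were worked back from the test, as the absolute log2 difference over the square root of the quasi-likelihood F statistic. Code was tested on simulated data. There the interaction contrast simulated, LP1 against AMO1, missed most of the 1.5-fold changes, and the acceptance limit, which this failed, was then restricted to larger ones. The antigen responses differed by less than that (at most 1.34-fold, for NCAM1 between LP1 and H929). An uncalled difference between responses therefore does not show equal responses. Same-letter libraries of both gapmer labels deviated together in AMO1 (correlations 0.198, 0.160 and 0.121 across genes, beside -0.266 to 0.0916 for different letters). These correlations are weak, so pairing is possible but not established, and the main test leaves the letter out.

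Alternatives were limma-voom (3.58.1), DESeq2 (1.42.0), scaling by RLE or by library size only, stricter and no filtering, the replicate block, a genomic span offset, a joint fit, the labels SCR or gN1E alone, adjusted p under 0.1 with 1.5-fold, and leaving out each library. Tables and figures used Python 3.11.15, numpy 2.4.6, pandas 2.3.3 and matplotlib 3.10.9. The antigens and lists were chosen with earlier results of these data known. Named from each list were, per line, up to 3 called genes with the largest change, and genes called in all 3 lines; for likeness, the 2 nearest genes.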

Additional observations from a re-analysis of the deposited data

Results flagged for a closer look

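Of 189 antigens and list genes tested for a difference between line labels in the change with the gapmer label, 7 (3.70%) were called between LP1 and AMO1 and 7 (3.70%) between LP1 and H929, beside 0.741% and 0.874% of all 26436 genes. The lists were chosen with earlier results known, so nothing is read from these shares. NCAM1 had a log2 difference of -0.42 between LP1 and AMO1 and of -0.43 between LP1 and H929, since it was higher with the gN1E label in AMO1 and H929 and about level in LP1. CD28 differed by -0.33 between LP1 and AMO1, and CD38 by 0.27 between LP1 and H929, the latter resting on nearly every library.

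Of the list genes, PARP1 differed by -0.47 between LP1 and AMO1 and by -0.56 between LP1 and H929, and was called in all 17 alternatives of either. The others were less firm. Against AMO1, EXT2 (-0.34) and XYLT1 (-0.32) had adjusted p = 0.0497 and 0.0490 by edgeR's quasi-likelihood test (Benjamini-Hochberg adjusted) and lost the call in 14 and 10 of 17 alternatives (up to 0.234 and 0.194). For EXT2 these included the replicate block, which takes up a possible pairing of the AMO1 libraries. Against H929, EXT2 (-0.36), XYLT1 (-0.37), NCSTN (-0.26) and SARM1 (-0.31) had adjusted p = 0.0272, 0.0121, 0.0436 and 0.0394 by the same edgeR quasi-likelihood test and lost it in 9, 5, 12 and 12 of 17 (up to 0.278, 0.148, 0.394 and 0.340). ITGB1, an integrin subunit, and POU2AF1, a B-lineage coactivator, both chosen after their values were seen, differed between LP1 and AMO1 by -0.32 and 0.25 (adjusted p = 0.0167 and 0.0477 by that edgeR quasi-likelihood test), losing the call in 5 and 10 of 17 (up to 0.172 and 0.144). NEAT1 itself differed by -0.54 and -0.64 between LP1 and AMO1 and H929, which was not called (adjusted p = 0.278 and 0.197 by edgeR's quasi-likelihood test (Benjamini-Hochberg adjusted)), and its part in these differences was not tested.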

How the results depend on the processing

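Of the 27 changes of antigens with the gapmer label, 431 alternative values were computed: 393 kept direction and side of the threshold, 6 lost a call, 5 gained one and 27 changed sign. For the 27 differences between lines the numbers were 505 of 513 kept and 8 lost, and for the 27 differences between responses 395 of 459 kept, 17 lost, 4 gained and 43 changed sign. Among the antigens every change of sign was in a value that was not called.

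With adjusted p under 0.1 and 1.5-fold, 0 antigens were called in AMO1, H929 and LP1, 4 between H929 and AMO1, and 0 for the responses of LP1 against AMO1 and against H929, since the fold excludes smaller differences. With library size only, 1 was called for the response of LP1 against H929. Leaving out a library gave 1 to 2 for either LP1 response and 3 to 4 in H929; the cause was not tested.

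Values that changed sign follow, all log2. GPRC5D in AMO1 was -0.037 with library size only, -0.0019 with the filter in 3 libraries, -0.012 with no filter and -0.0021 in the joint fit (without a library -0.038 to 0.055). In H929 it was 0.0018 with DESeq2, 0.0018 with RLE, 8.4e-04 with the filter in 3 libraries, 0.0034 with no filter, 0.0022 with the span offset and 0.011 in the joint fit (-0.071 to 0.077). FCRL5 in H929 -0.0037 with library size only (-0.0082 to 0.074; in AMO1 -0.056 to 0.0059), and TNFRSF17 in LP1 -0.013 in the joint fit (-0.043 to 0.054). For H929 against AMO1 responses with DESeq2, RLE and library size only were -0.020, -0.020 and -0.020 for SLAMF7 (-0.039 to 0.037), -0.014, -0.014 and -0.0098 for GPRC5D (-0.059 to 0.095) and -0.023, -0.022 and -0.018 for NCAM1 (-0.0020 with limma-voom; -0.070 to 0.060), and ITGB7 ranged from -0.075 to 0.079. With library size only, responses of LP1 against AMO1 were 0.017 for TNFRSF17 and 0.015 for SLAMF7, and against H929 0.035 for SLAMF7, 0.098 for ITGB7 and 0.036 for CD28. ITGB7 was 0.0059 with DESeq2 and 0.0059 with RLE there (-0.068 to 0.049), and -0.085 to 0.069 against AMO1. The cause was not tested.

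The MALAT1 log2 difference, gN1E against SCR, in AMO1 was 0.022 with the genomic span offset, and from -0.079 without AMO1_SCR replicate A to 0.041 without AMO1_SCR replicate D. In LP1 the MALAT1 difference ranged from -0.27 to -0.14 when a library was left out.

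With the replicate block, GPRC5D was -0.0015 in AMO1 and 0.0038 in H929, and with span offset and block together 0.0069 in H929, MALAT1 0.026 in AMO1, and 2 antigens were called in AMO1. The block gave 1394 genes in AMO1 (473 without) and 361 for the response of LP1 against H929 (231 without), where SDC1 was then called (adjusted p = 0.00482 by edgeR's quasi-likelihood test (Benjamini-Hochberg adjusted)). Same-letter correlations were -0.0021, -0.069 and -0.094 in H929 and 0.177, 0.0072 and -0.060 in LP1. Different letters gave -0.0618 to 0.115 in H929 and -0.159 to 0.153 in LP1, so no pairing is shown in these lines. The block changed no other call of an antigen.

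Counts of genes called that moved by over 1.5 times were, in AMO1, 808 with no filter, 1212 with span offset and block, 176 with the fold rule and 254 to 606 without a library. In H929 they included 855 with span offset and block and 701 to 1272 without a library. In LP1 they included 512 with DESeq2, 700 with no filter and 87 to 780 without a library. Between H929 and AMO1 the fold rule left 5065. Responses of LP1 against AMO1 gave 521 with DESeq2 and 122 to 212 without a library. Those of LP1 against H929 gave 140 to 284 without a library, and those of H929 against AMO1 gave 5 with DESeq2 and 0 to 5 without a library.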
